A study of Mus musculus with 9 samples.

Results

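Genes of the actin and microtubule cytoskeleton and their motors were followed in 3 groups of sorted mouse skeletal stem cells. They were chosen by name and biotype alone: the protein-coding genes whose symbols start like those of actins and actin-related proteins, tubulins, myosins, tropomyosins, calponins, kinesins, cytoplasmic dynein, keratins, thymosins and PDZ-LIM proteins. This gave 46 of the 8329 genes in the table. Of the 46, 34 were above 0 in at least 1 library and 14 passed a filter of at least 1 FPKM (fragments per kilobase of transcript, scaled to the library total) in at least 3 of the 9 libraries, so that only these 14 were tested. Another 20 were above 0 but under the filter, and 12 were at 0 in all libraries.

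The study sequenced poly-A RNA from wild-type C57BL/6J mice to compare stem cells of the marrow and of the periosteum, the sheet of tissue that covers bone, with periosteal cells of a transplanted bone. BM-MSCs (bone marrow mesenchymal stem cells) and P-SSCs (periosteal skeletal stem cells) were taken at steady state (day 0), and graft P-SSCs came from the periosteum of femurs that had been implanted under the skin of a recipient mouse and removed on day 3. All groups were sorted as CD45-Ter119-CD31-CD51+CD200+ cells from adult mice, a gate meant to leave out blood and endothelial cells. Each group held 3 libraries, some made from the RNA of more than 1 mouse. The column names of BM-MSC replicate 2 and P-SSC replicate 2 join more than 1 sample number, and those of the graft libraries do not. Whether these are the pooled libraries was not stated. The labels carry no mark of donor or host origin for the graft cells, and both periosteal groups differ from BM-MSCs in tissue and digestion as well as in cell type. Of 14 stromal marker genes only *Postn*, a periosteal matrix gene, was in the table, with levels of 90.6 to 125 FPKM in BM-MSCs, 391 to 476 FPKM in P-SSCs and 782 to 879 FPKM in graft P-SSCs. Of the genes that define the gate, only *Ptprc*, which encodes CD45, was analysed here, and it is given below beside the blood markers. Library totals, recovered from the steps of the FPKM values, ranged from 16890244 to 21315438 fragments. Pearson's r of log2(FPKM + 1) between libraries of a group, across the genes tested, ran from 0.945 to 0.956 in BM-MSCs, from 0.858 to 0.960 in P-SSCs and from 0.982 to 0.992 in graft P-SSCs.

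Actin filaments give a cell its shape and, with myosin, its pull. Arp2/3 branches them, tropomyosins lie along them, and class 1 myosins tie them to membranes. Microtubules serve as tracks for kinesins and dynein, and in mitosis they are rebuilt as the spindle, where a small set of kinesins works only in dividing cells. Sarcomeric myosin chains belong to striated muscle and keratins to epithelia, so neither is typical of skeletal stem cells.

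Promoters are shown first for *Kif20b*, the single mitotic kinesin in the table, and for 3 genes of a list of spindle and cytokinesis genes. They were chosen because their levels moved together between the groups. Genes of that list are called partners here, which does not mean that they bind *Kif20b*. The sequences are from RefSeq on GRCm38.p6 and run 5′ to 3′ along the gene's own strand. Capitals mark TTTGAA, the letters of the cell cycle genes homology region (CHR) found in promoters of many genes expressed in G2 and mitosis, and in *Kif20b* also a CArG box, the site class of serum response factor. *Kif20b* (300 bases, chr19:34922108-34922407, plus strand) runs from 250 bases before the start. *Plk1* (chr7:122159385-122159484, plus strand), *Racgap1* (chr15:99651607-99651706, minus strand) and *Cdca8* (chr4:124936868-124936967, minus strand) are shown over 100 bases from 50 before the start.
Kif20b: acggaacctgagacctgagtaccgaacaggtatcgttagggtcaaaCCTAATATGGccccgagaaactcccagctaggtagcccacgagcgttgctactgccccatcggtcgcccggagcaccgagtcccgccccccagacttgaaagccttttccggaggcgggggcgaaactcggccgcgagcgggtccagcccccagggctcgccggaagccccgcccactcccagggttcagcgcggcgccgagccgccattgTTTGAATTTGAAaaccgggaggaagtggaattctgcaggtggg
Plk1: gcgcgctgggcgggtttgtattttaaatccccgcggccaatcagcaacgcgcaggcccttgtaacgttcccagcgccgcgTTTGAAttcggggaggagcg
Racgap1: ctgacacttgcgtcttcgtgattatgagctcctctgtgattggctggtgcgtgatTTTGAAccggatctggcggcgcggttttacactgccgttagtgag
Cdca8: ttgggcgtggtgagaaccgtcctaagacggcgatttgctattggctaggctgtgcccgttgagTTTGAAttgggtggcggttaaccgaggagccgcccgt
In *Kif20b* the CHR letters stand in tandem, 7 and 13 bases after the start, and the CArG box 204 bases before it. TTTGAA on either strand was in 8 of the 9 partner promoters that RefSeq held, in 3 of 10 promoters of tested cytoskeletal genes and in 17.9% of all 32851 promoters. The 3 were *Kif20b*, *Arpc3* and *Actr6*, and neither *Arpc3* nor *Actr6* passed the test described below in any comparison. CCAAT, on either strand, was in 8 of 9, 3 of 10 and 37.4%. A match to these letters is a description of the window and does not show that a factor bound there.

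The promoters of 2 myosins that also differed between groups follow for contrast. *Myo19* (chr11:84879920-84880219, plus strand) holds no CHR letters and no CArG box, and *Myo1e* (chr9:70207100-70207399, plus strand) holds a CArG box, in capitals, 32 bases before the start.
Myo19: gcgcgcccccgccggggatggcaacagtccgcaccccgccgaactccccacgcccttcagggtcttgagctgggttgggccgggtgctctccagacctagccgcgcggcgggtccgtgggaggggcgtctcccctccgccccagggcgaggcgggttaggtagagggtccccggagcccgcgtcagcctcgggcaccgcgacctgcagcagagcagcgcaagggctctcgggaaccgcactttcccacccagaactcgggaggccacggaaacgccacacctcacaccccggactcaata
Myo1e: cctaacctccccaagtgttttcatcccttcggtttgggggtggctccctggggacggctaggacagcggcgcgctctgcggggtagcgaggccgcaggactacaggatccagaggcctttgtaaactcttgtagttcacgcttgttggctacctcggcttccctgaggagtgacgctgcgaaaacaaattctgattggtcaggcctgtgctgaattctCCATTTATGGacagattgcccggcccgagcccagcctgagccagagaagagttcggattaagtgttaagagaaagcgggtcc
CArG boxes, searched on both strands, were in *Kif20b* and *Myo1e* alone among the 10 tested genes with a promoter, and in 1.63% of all promoters. The promoters of *Actg2*, *Dync1li2* and *Tubgcp2* are not shown.

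The 1948 genes that passed the filter were compared on the log2(FPKM + 1) scale by limma, with Benjamini-Hochberg adjustment over all of them, and a gene was called at an adjusted p under 0.05. A difference on this scale understates the change of a gene with low FPKM. The adjusted p-values measure the spread between these libraries, which came from distinct mice. Between P-SSCs and BM-MSCs, 1 of the 14 cytoskeletal genes was called higher and 1 lower, beside 9.80% and 14.4% of all genes tested. Between graft and steady-state P-SSCs, 5 were called higher and 2 lower, beside 22.6% and 11.5%. The filter can be met by 1 group alone. *Kif20b* and *Actg2* met it only through their graft libraries, where they were high, and *Kif21a*, highest in P-SSCs, stayed under it. Between graft P-SSCs and BM-MSCs, 6 were called higher and 0 lower by limma (0 lower at an unadjusted p under 0.05), beside 25.7% and 16.2%. The 3 comparisons share libraries and are not independent of one another. The median log2 differences of the 14 genes were 0.21, 0.20 and 0.57 in these comparisons, and those of all genes tested were -0.06, 0.26 and 0.28. The shift of all genes in the graft depended on the scaling. With median-of-ratios scaling the median of all genes fell to 0.02 against P-SSCs and 0.08 against BM-MSCs, that of the 14 genes against P-SSCs turned to -0.09, and the share of all calls that were higher in the graft went from 66.3% to 50.7% against P-SSCs and from 61.4% to 51.5% against BM-MSCs. With quantile normalization these shares were 46.8% and 48.9%. Calls of cytoskeletal genes that a scaling removed are given below. The differences of 13 of the 14 genes are plotted with their intervals.

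**Figure D1:**
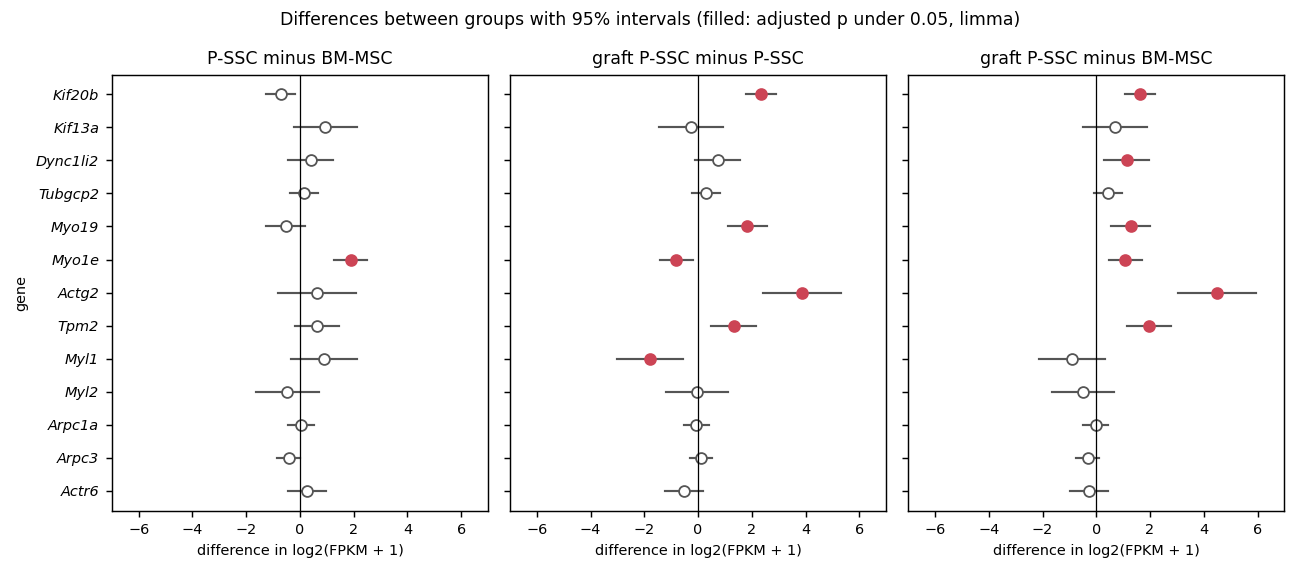
Differences between groups in log2(FPKM + 1) (x axis) for 13 of the 14 tested genes (y axis), with 95% intervals from limma. Filled circles have an adjusted p under 0.05. *Myo1e* is filled in the P-SSC against BM-MSC panel, and the 4 filled circles right of 0 in the graft against P-SSC panel are *Kif20b*, *Myo19*, *Actg2* and *Tpm2*.

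*Kif20b*, a kinesin-6 that works at the central spindle in cytokinesis (chromosome 19, 34922361 to 34975745, plus strand, GRCm38), was the mitotic motor. It stood at 0.655, 0.267 and 1.10 FPKM in the 3 BM-MSC libraries, at 0 in each P-SSC library, and at 3.87, 4.25 and 4.09 FPKM in the graft P-SSC libraries. The 3 groups did not overlap, with the graft libraries highest and every P-SSC library at 0. For this gene the values came out as whole fragments, 22, 10 and 40 in BM-MSCs and 136, 180 and 146 in graft P-SSCs. Set against a floor of 3 fragments per library (0.0802 FPKM), the mean of graft P-SSCs was at least 50.7-fold higher than P-SSCs and that of BM-MSCs at least 8.41-fold higher; the floor covers counting error only. On the log2 scale graft P-SSCs were higher than P-SSCs by 2.34 (SE 0.24, 95% interval 1.80 to 2.88, adjusted p = 0.000104 from limma) and higher than BM-MSCs by 1.63 (SE 0.24, 95% interval 1.09 to 2.17, adjusted p = 0.000608 from limma). The difference of P-SSCs from BM-MSCs, -0.71 (SE 0.24, 95% interval -1.25 to -0.17, adjusted p = 0.0596 from limma), missed the threshold, and it passed with a pseudocount of 0.1, with quantile normalization, without a trend in the variance and without BM-MSC replicate 2. In RNA of sorted populations a larger share of dividing cells and more RNA in each cannot be told apart.

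*Myo19*, an actin motor carried on mitochondria and known for their even partition at division (chromosome 11, 84880148 to 84911226, plus strand), had the same order of group means. It had 1.04, 0.779 and 2.12 FPKM in BM-MSCs, 0.344, 0.242 and 1.22 FPKM in P-SSCs and 4.20, 4.51 and 4.74 FPKM in graft P-SSCs. All graft libraries were above all others, and P-SSC replicate 3 lay within the range of BM-MSCs. Graft P-SSCs were higher than P-SSCs by 1.82 (SE 0.32, 95% interval 1.10 to 2.55, adjusted p = 0.00213 from limma) and higher than BM-MSCs by 1.29 (SE 0.32, 95% interval 0.56 to 2.01, adjusted p = 0.0108 from limma), while P-SSCs against BM-MSCs gave -0.54 (SE 0.32, 95% interval -1.26 to 0.19, adjusted p = 0.288 from limma). Exons of *Myo19* overlap those of *Znhit3* and *Pigw* on the opposite strand over 3.89% and 1.49% of its exon bases, and the strand used in counting was not given in the sources used here.

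Other genes of the spindle and of cytokinesis were followed as the list of partners. Of 43 partner genes listed, 10 were in the table and all 10 were tested. Between graft and steady-state P-SSCs all 10 rose, beside 22.6% of all genes tested, with a median log2 difference of 4.41 beside 0.26. From BM-MSCs to P-SSCs 9 of the 10 fell, beside 14.4% of all genes tested (median -1.87 beside -0.06), and *Ckap5*, a microtubule polymerase, did not pass the test (-0.28, adjusted p = 0.679 from limma). In graft P-SSCs against BM-MSCs 9 were called higher, beside 25.7% of all genes tested (median 2.31 beside 0.28), and *Cit*, a kinase of the midbody, did not pass (0.78, adjusted p = 0.0577 from limma). These 2 genes were named after their values were seen. With median-of-ratios scaling and with quantile normalization the counts were 10 and 9 higher in the graft than in P-SSCs, 8 and 8 lower in P-SSCs than in BM-MSCs, and 8 and 7 higher in the graft than in BM-MSCs, the last without *Ckap5* in both and without *Cdca8* with quantiles. Of all 1948 genes tested, 311 and 312, 249 and 248, and 387 and 387 were called in these directions with the same scalings.

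*Plk1*, the kinase that starts cytokinesis and builds the spindle poles, was at 14.7, 20.2 and 48.7 FPKM in BM-MSCs, 0.0434, 0 and 0 FPKM in P-SSCs and 146, 153 and 151 FPKM in graft P-SSCs. *Racgap1*, part of the central spindle, was at 11.02, 3.50 and 23.1 FPKM in BM-MSCs, 1.15, 0 and 2.47 FPKM in P-SSCs and 122, 126 and 117 FPKM in graft P-SSCs. *Cdca8*, a subunit of the chromosomal passenger complex, was at 14.3, 8.53 and 34.9 FPKM in BM-MSCs, 0, 3.03 and 0 FPKM in P-SSCs and 69.3, 75.4 and 72.9 FPKM in graft P-SSCs. In all 3 genes the groups stood apart in the order P-SSC, BM-MSC, graft P-SSC, as for *Kif20b*. *Hmmr*, a spindle-binding protein, was listed at 0 in the 3 P-SSC libraries and at 27, 30.04 and 29.2 FPKM in the graft. BM-MSC replicate 3 held the highest BM-MSC values of *Kif20b*, *Myo19*, *Plk1*, *Racgap1* and *Cdca8*. The partners *Cit* and *Ect2*, picked out after their values were seen, were instead highest in BM-MSC replicate 2, at 2.46 and 5.70 FPKM. Of the 4 blood marker genes in the table, *Hba-a2* and *Lyz2*, genes of red cells and phagocytes, were also highest in BM-MSC replicate 3, at 2201 and 608 FPKM. *Mpo* was at 292 FPKM in BM-MSC replicate 1 and 0 in the other BM-MSC libraries, and *Ptprc* was highest in replicate 2. The part of blood cells in the marrow values was not tested. These genes are shown by library in the heat map.

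**Figure D2:**
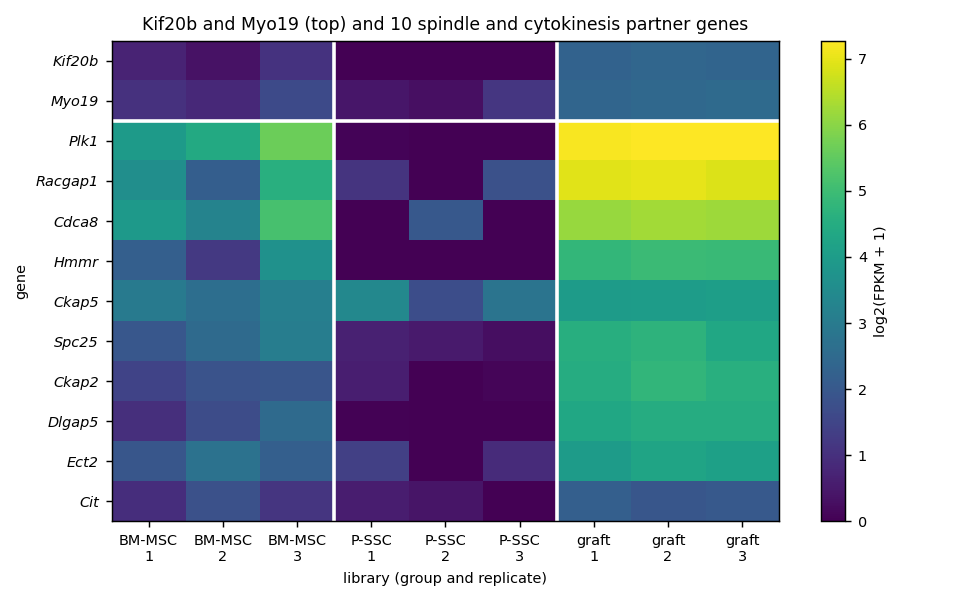
Level of *Kif20b*, *Myo19* (above the white line) and 10 spindle and cytokinesis partner genes (below it) in each of the 9 libraries, as log2(FPKM + 1) by colour. The graft columns are the brightest in every row, and the mean of the P-SSC columns is the lowest in every row.

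Of the other 3 microtubule genes tested, 1 was called, in 1 comparison. *Dync1li2*, a light intermediate chain that links cytoplasmic dynein to its cargo, was at 15.8, 16.8 and 13.6 FPKM in BM-MSCs, 34.6, 10.1 and 24.6 FPKM in P-SSCs and 33.8, 35.1 and 35.5 FPKM in graft P-SSCs. The graft libraries were close together at about the level of P-SSC replicate 1, and P-SSC replicate 2 was the lowest of all. Graft P-SSCs were higher than BM-MSCs by 1.13 (SE 0.37, 95% interval 0.30 to 1.96, adjusted p = 0.0346 from limma). This call was lost when libraries were scaled by the median of ratios (0.89, adjusted p = 0.0687 from limma), with quantile normalization (0.84, adjusted p = 0.0698 from limma), with no filter on low values and without any 1 of the 6 libraries compared. Without P-SSC replicate 2, P-SSCs were called higher than BM-MSCs as well (0.88, adjusted p = 0.0180 from limma). Of its exon bases 7.08% overlap those of *K230015D01Rik* on the opposite strand.

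*Tubgcp2*, a subunit of the gamma-tubulin ring from which microtubules grow, was at 22.5, 23.1 and 33.7 FPKM in BM-MSCs, 28.8, 37.2 and 22.5 FPKM in P-SSCs and 35.04, 33.6 and 38.4 FPKM in graft P-SSCs. The groups overlapped, and the difference of the graft from P-SSCs was 0.29 (SE 0.24, 95% interval -0.24 to 0.83, adjusted p = 0.381 from limma), which was -0.029 and -0.073 with the other 2 scalings. *Kif13a*, a kinesin-3 that moves vesicles, was at 2.12, 0 and 0.0839 FPKM in BM-MSCs, 3.05, 0.517 and 2.95 FPKM in P-SSCs and 2.40, 1.27 and 0.853 FPKM in graft P-SSCs, spread so widely within BM-MSCs and P-SSCs that its interval for P-SSCs against BM-MSCs ran from -0.23 to 2.13. *Kif21a*, a kinesin-4 known from axons, was under the filter and was picked out after its values were seen. It had 2, 0 and 2 whole fragments in BM-MSCs, 88, 103 and 137 in P-SSCs and 60, 74 and 49 in graft P-SSCs. Its P-SSC libraries, at 0.960, 1.25 and 1.55 FPKM, were above its graft libraries, at 0.731, 0.748 and 0.588 FPKM. With no filter on low values, P-SSCs against BM-MSCs gave 1.14 (adjusted p = 0.00142 from limma) and graft P-SSCs against BM-MSCs 0.73 (adjusted p = 0.00957 from limma), and the graft against P-SSCs missed the threshold. The tubulins in the table were *Tuba8* and *Tuba3b*, with at most 0.916 and 0.0264 FPKM.

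Of 41 other microtubule regulators listed, 12 were in the table and 11 were tested. Between graft and steady-state P-SSCs 1 rose and 1 fell (median 0.13), beside 22.6% and 11.5% of all genes tested. With either other scaling 1 rose and 2 fell. Of all 1948 genes 311 rose and 302 fell with median-of-ratios scaling, and 312 and 355 with quantiles. The gene added was *Map1b*, picked out after its values were seen (-1.16 and -1.36, adjusted p = 0.0312 and 0.0149 from limma). *Stmn1*, which takes microtubules apart and is high in dividing cells, went from 9.44, 13.2 and 12.6 FPKM in P-SSCs to 126, 140.0 and 125 FPKM in the graft, with 58.4, 61.3 and 122 FPKM in BM-MSCs, a difference between graft and P-SSCs of 3.37 (SE 0.28, 95% interval 2.75 to 3.998, adjusted p = 2.54e-05 from limma). *Dctn2*, a subunit of dynactin, the partner of dynein, fell by 0.53 (adjusted p = 0.0321 from limma) in the graft against P-SSCs. *Dctn4* and *Katna1* had differences of 0.13 and 0.22, neither past the test, and both turned below 0 with either other scaling, as did the median of the list (-0.18 and -0.30). From BM-MSCs to P-SSCs 2 rose and 1 fell, beside 9.80% and 14.4% of all genes tested, and in graft P-SSCs against BM-MSCs 1 was called higher and 0 lower by limma (1 lower at an unadjusted p under 0.05), beside 25.7% and 16.2%. That 1 gene, *Mapre3*, a protein of growing microtubule ends picked out after its values were seen, was called lower with both other scalings (-1.07 and -1.17, adjusted p = 0.0326 and 0.0102 from limma).

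Both contractile actin genes tested were higher in the graft. *Tpm2*, beta-tropomyosin of stress fibres and muscle (chromosome 4, 43514711 to 43523765, minus strand), was at 96.8, 135 and 51.6 FPKM in BM-MSCs, 115, 225 and 97.7 FPKM in P-SSCs and 336, 349 and 347 FPKM in graft P-SSCs. The graft libraries lay within a narrow range above all others, and steady-state P-SSCs overlapped BM-MSCs. Graft P-SSCs were higher than BM-MSCs by 1.96 (SE 0.37, 95% interval 1.13 to 2.79, adjusted p = 0.00262 from limma). Against P-SSCs the difference was 1.33 (SE 0.37, 95% interval 0.50 to 2.16, adjusted p = 0.0206 from limma), and with scaling by the median of ratios it was 0.998 (adjusted p = 0.110 from limma). That call was also lost with no filter and without P-SSC replicate 1 or any 1 graft library.

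*Actg2*, the gamma actin of smooth muscle (chromosome 6, 83512905 to 83536265, minus strand), had 1.88, 0 and 0 FPKM in BM-MSCs, 0.832, 4.996 and 0 FPKM in P-SSCs and 30.4, 28.7 and 34.8 FPKM in graft P-SSCs. It was at 0 in 3 of the 6 steady-state libraries, and its highest steady-state value, in P-SSC replicate 2, was far under the lowest of the graft. Graft P-SSCs were higher than P-SSCs by 3.86 (SE 0.64, 95% interval 2.41 to 5.30, adjusted p = 0.00155 from limma) and than BM-MSCs by 4.50 (SE 0.64, 95% interval 3.05 to 5.95, adjusted p = 0.000502 from limma), and both calls held in all 17 alternative settings. None of the 50-base stretches of its transcripts occurs in a transcript of another gene, although actins are much alike. Markers of smooth muscle cells and pericytes were not analysed here, so the cell that carried *Actg2* was not tested.

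*Myo1e*, a long-tailed class 1 myosin of cell adhesions and endocytosis (chromosome 9, 70207350 to 70399766, plus strand), was at 9.74, 7.51 and 5.01 FPKM in BM-MSCs, 35.1, 23.05 and 30.7 FPKM in P-SSCs and 17.6, 16.3 and 14.9 FPKM in graft P-SSCs. The groups stood apart without overlap, highest in steady-state P-SSCs and lowest in BM-MSCs. P-SSCs were higher than BM-MSCs by 1.88 (SE 0.27, 95% interval 1.27 to 2.49, adjusted p = 0.000677 from limma), and this call held in all 17 alternative settings. The difference of the graft from P-SSCs was -0.81 (SE 0.27, 95% interval -1.42 to -0.20, adjusted p = 0.0447 from limma). It was lost with a pseudocount of 0.1, with no filter and without any 1 graft library, BM-MSC replicate 2, P-SSC replicate 1 or P-SSC replicate 3. Graft P-SSCs were higher than BM-MSCs by 1.07 (SE 0.27, 95% interval 0.46 to 1.68, adjusted p = 0.0116 from limma), which was 0.70 (adjusted p = 0.0786 from limma) with quantile normalization and was also lost without graft P-SSC replicate 1 (1.02, adjusted p = 0.0503 from limma).

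**Figure D3:**
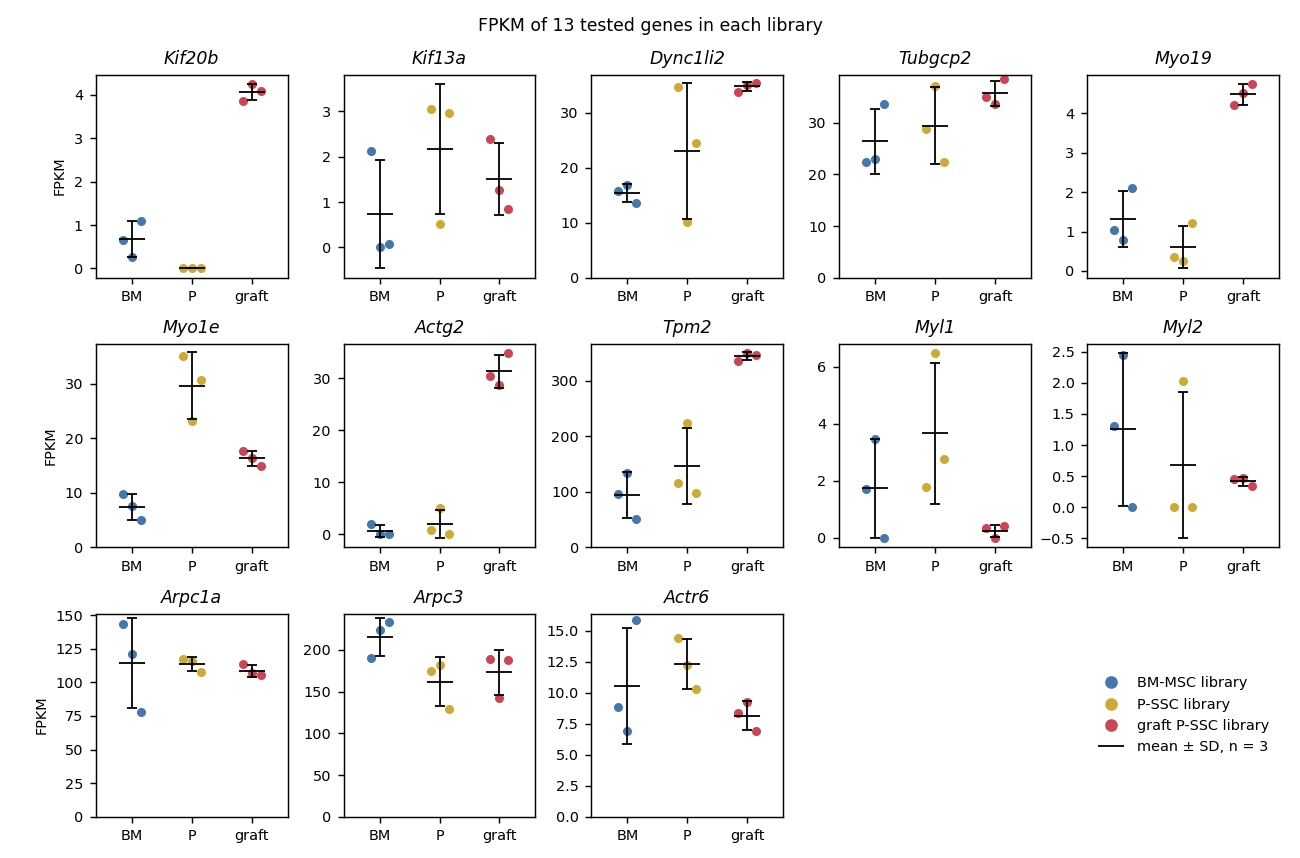
FPKM (y axes, a scale for each gene) of 13 of the 14 tested genes in the BM-MSC, P-SSC and graft P-SSC libraries, 3 points per group, with the mean and SD over n = 3. *Kif20b*, *Myo19*, *Actg2* and *Tpm2* have their 3 graft points above all others, and *Myo1e* has its 3 P-SSC points on top.

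Arp2/3 subunits, which build branched actin at the front of moving cells, were high and not called in any comparison. *Arpc3* was at 189.8, 223 and 233 FPKM in BM-MSCs, 175, 183 and 129 FPKM in P-SSCs and 189, 142 and 188 FPKM in graft P-SSCs. All BM-MSC libraries were above the others by a small margin, and P-SSCs against BM-MSCs gave -0.42 (SE 0.19, 95% interval -0.84 to -0.0016, adjusted p = 0.146 from limma). *Arpc1a* was at 144, 121 and 77.7 FPKM in BM-MSCs, 118, 116 and 108 FPKM in P-SSCs and 114, 107 and 105 FPKM in graft P-SSCs. Its difference of the graft from P-SSCs was -0.07 (SE 0.21, 95% interval -0.54 to 0.41, adjusted p = 0.832 from limma), and -0.40 with quantile normalization, also not called. *Actr6* carries an actin-like name but is a subunit of a nuclear chromatin remodeller, and it was at 8.84, 6.96 and 15.9 FPKM in BM-MSCs, 14.4, 12.3 and 10.3 FPKM in P-SSCs and 8.36, 9.25 and 6.90 FPKM in graft P-SSCs, with -0.54 (SE 0.32, 95% interval -1.25 to 0.18, adjusted p = 0.227 from limma) for the graft against P-SSCs.

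Of 61 actin regulators listed, 14 were in the table and all 14 were tested. Between graft and steady-state P-SSCs 5 rose and 1 fell (median 1.03), beside 22.6% and 11.5% of all genes tested. With median-of-ratios scaling 3 rose, without *Lasp1* (0.35, adjusted p = 0.220 from limma) and *Srf* (1.68, adjusted p = 0.0688 from limma), and with quantile normalization 4 rose, without *Srf* (1.55, adjusted p = 0.0730 from limma), and 2 fell. From BM-MSCs to P-SSCs 2 rose and 1 fell (median 0.44), beside 9.80% and 14.4%, and in graft P-SSCs against BM-MSCs 8 were called higher and 0 lower by limma (median 1.21, 0 lower at an unadjusted p under 0.05), beside 25.7% and 16.2%. With either other scaling 3 rose from BM-MSCs to P-SSCs, with *Diaph1* added, and 7 were higher in the graft than in BM-MSCs, without *Rdx*. These genes were named after their values were seen. Of all 1948 genes, 207 and 226, and 387 and 387, were called higher with the same scalings. *Pfn1*, profilin, which feeds actin monomers to growing ends, was at 487, 486 and 557 FPKM in BM-MSCs, 132, 217 and 513 FPKM in P-SSCs and 1253, 1324 and 1233 FPKM in graft P-SSCs. *Vasp*, which speeds that growth, stood lowest in P-SSCs, at 28.02, 34.8 and 22.5 FPKM against 64.9, 67.6 and 64.6 in BM-MSCs and 65.6, 61.8 and 70.9 in the graft. *Lasp1*, an adaptor of actin bundles, rose by 0.68 and *Dstn*, which severs filaments, fell by 0.53 in the graft against P-SSCs (adjusted p = 0.00906 and 0.0356 from limma). *Srf*, the factor that binds CArG boxes, was picked out after its values were seen. It was at 3.25, 1.71 and 5.501 FPKM in BM-MSCs, 1.10, 3.73 and 10.8 FPKM in P-SSCs and 34.5, 18.3 and 9.02 FPKM in the graft, where P-SSC replicate 3 was above graft replicate 3, with 1.96 (SE 0.67, 95% interval 0.46 to 3.46, adjusted p = 0.0464 from limma) for the graft against P-SSCs.

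Sarcomeric myosin chains were low in every group. *Myl1*, an essential light chain of fast skeletal muscle, was at 1.72, 3.48 and 0 FPKM in BM-MSCs, 1.77, 6.47 and 2.76 FPKM in P-SSCs and 0.329, 0 and 0.405 FPKM in graft P-SSCs. All P-SSC libraries were above all graft libraries, and the difference was -1.79 (SE 0.55, 95% interval -3.02 to -0.57, adjusted p = 0.0306 from limma). It was lost with a pseudocount of 0.1, with no filter, without P-SSC replicate 2 (-1.39, adjusted p = 0.0995 from limma) and without any 1 graft library. Of its 50-base stretches 11.7% also occur in the pseudogene *Mylf-ps*.

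Of 13 skeletal muscle marker genes listed, 2 were in the table, the calcium pump *Atp2a1* and titin, *Ttn*, neither tested. Their summed level was 0.0553 to 0.693 FPKM in BM-MSCs, 0.828 to 5.72 FPKM in P-SSCs and 0.0702 to 0.405 FPKM in graft P-SSCs, most of it *Atp2a1* in P-SSCs. *Atp2a1*, at 0.828, 5.69 and 2.89 FPKM in P-SSCs, was highest in replicate 2 as *Myl1* was. *Ttn* did not exceed 0.0727 FPKM in any library, overlapped between the groups and was highest in P-SSC replicate 3. The part of muscle RNA in this result was not tested. *Myl2*, the regulatory light chain of heart and slow muscle, had 11, 23 and 0 whole fragments in BM-MSCs, 0, 18 and 0 in P-SSCs and 4, 5 and 3 in the graft, and was not called in any comparison. Of the untested sarcomeric genes, *Mylk3*, the kinase of the heart light chain, was at 3.84, 0 and 4.19 FPKM in BM-MSCs and listed at 0 in the other 6 libraries, and *Myh7*, *Myh13* and *Myl7* did not exceed 0.208 FPKM.

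*Myo1f*, the class 1 myosin of white blood cells, was the highest of the untested genes and was picked out after its values were seen. It was at 0.832, 7.47 and 12.04 FPKM in BM-MSCs, listed at 0 in the P-SSC libraries, and at 0.368, 0.113 and 0.821 FPKM in the graft. Of 12 blood marker genes 4 were in the table (*Ptprc*, *Hba-a2*, *Lyz2* and *Mpo*), with summed levels of 1159 to 2810 FPKM in BM-MSCs, 16.4 to 79.0 FPKM in P-SSCs and 29.4 to 86.2 FPKM in graft P-SSCs. *Ptprc* encodes the CD45 that the sort selects against. It was at 0.326, 1.35 and 1.19 FPKM in BM-MSCs and listed at 0 in the P-SSC libraries, as *Myo1f* was. In the graft libraries *Ptprc* was at 0.311, 0.113 and 0.134 FPKM. *Mpo* too was listed at 0 in the P-SSC libraries and was at 1.09, 0.975 and 1.59 FPKM in the graft, a difference that was not called. *Hba-a2* and *Lyz2* overlapped between P-SSCs and the graft. With no filter on low values, *Myo1f* was called lower in P-SSCs than in BM-MSCs (-2.55, adjusted p = 0.0390 from limma). The part of blood cells in the marrow and graft levels of *Myo1f* was not tested. The levels of these genes and of the muscle genes are plotted by library.

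**Figure D4:**
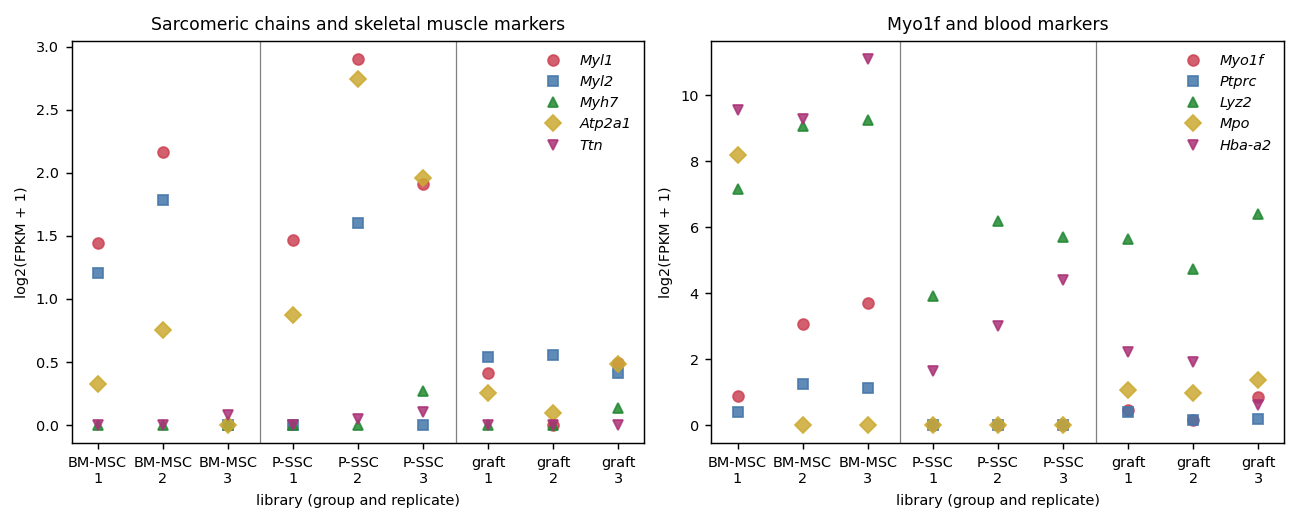
Levels in log2(FPKM + 1) (y axes) in each of the 9 libraries (x axes) of sarcomeric chains with skeletal muscle markers (left) and of *Myo1f* with blood markers (right). *Myl1* and *Atp2a1* both peak in P-SSC replicate 2, and *Myo1f* is highest in BM-MSC replicates 2 and 3.

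Keratin names made up the largest class, and none of its genes passed the filter. Of 10 keratins and 7 keratin-associated proteins, 10 genes were at 0 in all 9 libraries, and 1 of the 17 exceeded 1 FPKM in any library, the hair keratin *Krt83* with 1.33 FPKM in BM-MSC replicate 2. *Krt7* was at 0, 0.844 and 0 FPKM in P-SSCs and 0, 0.553 and 0.656 FPKM in graft P-SSCs, and at 0 in BM-MSCs. Markers of keratinocytes and other epithelia were not analysed here. Of other intermediate filament genes, *Vim*, the vimentin of mesenchymal cells, was at 457, 438 and 449 FPKM in BM-MSCs, 1667, 1823 and 1499 FPKM in P-SSCs and 3051, 3104 and 3239.7 FPKM in graft P-SSCs, and rose from each of these groups to the next (1.89 and 0.92, adjusted p = 5.47e-06 and 0.000478 from limma). The difference of the graft from P-SSCs was 0.59 and 1.89 with the median-of-ratios and the quantile scaling (limma's adjusted p = 0.0460 and 4.47e-07). *Lmnb1*, a nuclear lamin and the only other gene tested of 16 further intermediate filament genes listed, was at 0.376, 0.161 and 2.13 FPKM in P-SSCs and 25.5, 16.99 and 10.05 FPKM in the graft, a difference of 3.35 (SE 0.44, 95% interval 2.35 to 4.34, adjusted p = 0.000441 from limma).

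The remaining untested genes were low. *Myl6b*, a non-muscle light chain, reached 0.992 FPKM in BM-MSCs and 0.0497 FPKM in the other groups. *Myo15*, a motor of hair cells in the ear, had its highest value, 0.980 FPKM, in P-SSC replicate 2, and *Myo5b* and *Myo5c*, vesicle motors of epithelia, did not exceed 0.0457 FPKM. *Krtcap3*, a membrane protein of keratinocytes caught by its name, reached 1.09 FPKM, and the testis genes *Actrt1* and *Actrt3* were at 0 throughout. Of the abundant cytoplasmic actins, non-muscle myosin 2 heavy chains, alpha-actinins, calponins, thymosins and the other mitotic kinesins, none was analysed here.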

How the data were processed

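RNA from 3 BM-MSC, 3 P-SSC and 3 graft P-SSC libraries was measured. The deposited values are FPKM, which the authors made from fragments counted per gene and divided by a length and by the library total, with no further scaling between libraries. The submitters' processing notes name CASAVA, fastp, STAR 2.6.1d, featureCounts 1.5.0-p3 and the build GRCm38; the annotation release is not given in the sources used here. For genes with 1 transcript in GENCODE M21, 98.4% of 4837 values above 0 were whole fragments within 0.02. For genes with several transcripts the mean transcript length gave whole fragments in 47.5% of 17827 values, so counts were not recovered for most genes, no test for counts was used, and whole fragments are given for single genes only where all 9 values came out whole (21 of the 34 cytoskeletal genes above 0, and 3 of the 14 tested). The length behind the FPKM of such genes was therefore not settled, and the mean transcript length can differ from the length the table lists: for *Kif20b* the mean is 1989.2 bases and the listed length 6957.

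Groups came from the labels. Values were analysed as log2(FPKM + 1). Genes with at least 1 FPKM in at least 3 of 9 libraries were kept (1948), and limma 3.58.1 in R 4.3.3 (lmFit, contrasts, eBayes with a trend) was fitted to all 9 libraries at once, with Benjamini-Hochberg adjustment over all genes tested. The procedure was tested on simulated data. Alternatives changed the pseudocount (0.1), the filter (none above 0, or 5 FPKM), the scaling (median of ratios, quantiles), the choice of libraries fitted, the block and the trend, and left out each library in turn. Running the scalings on the companion lists was chosen after seeing the data. Promoters, from 250 bases before to 50 after each start, and their motifs were read from RefSeq. The genes, classes and lists were chosen with earlier results of these data known. Named were, among tested genes, the 4 highest by mean FPKM in each class and list, the 6 largest called increases and decreases whose higher group had a mean of 5 FPKM or more, and every mitotic kinesin; others are said to be chosen after their values were seen, and markers and untested genes belong to the latter. Counts cover all genes tested, and some single genes among them are not reported here.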

Additional observations from a re-analysis of the deposited data

How the results depend on the processing

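*Kif20b*, *Myo19* and *Actg2* kept their calls in both graft comparisons, *Tpm2* in the graft against BM-MSCs and *Myo1e* at steady state, in every alternative that tested them. Between P-SSCs and BM-MSCs the 1 gene called higher became 2 with no filter on low values, which added *Kif21a*, and 1 to 2 when a library was left out (2 without P-SSC replicate 2, which added *Dync1li2*). The 1 called lower became 2 with a pseudocount of 0.1, no filter (which added *Myo1f*), quantile normalization or no trend, and 1 to 2 when a library was left out (2 without BM-MSC replicate 2, which added *Kif20b*). Between graft P-SSCs and P-SSCs the 5 called higher became 3 with a filter of 5 FPKM, which left 9 of the 14 genes, and 4 with median-of-ratios scaling, with no filter and without any 1 graft library, each time without *Tpm2*. Without P-SSC replicate 1 the count was 5, with *Dync1li2* called and *Tpm2* not. The 2 called lower, *Myl1* and *Myo1e*, became 0 with a pseudocount of 0.1 and with no filter, 1 with a filter of 5 FPKM, and 0 to 2 when a library was left out: 1 without BM-MSC replicate 2 or any 1 P-SSC library and 0 without any 1 graft library. Between graft P-SSCs and BM-MSCs the 6 called higher became 5 with median-of-ratios scaling and without any 1 BM-MSC library, graft replicate 2 or graft replicate 3 (each without *Dync1li2*), 4 with quantile normalization and without graft replicate 1 (without *Dync1li2* and *Myo1e*), and 4 with a filter of 5 FPKM. With no filter the count was 6, with *Kif21a* in place of *Dync1li2*. In the same comparison the 0 called lower became 0 to 1, with *Myl1* called lower without BM-MSC replicate 3 (-1.50, adjusted p = 0.0318 from limma). Beyond fewer genes or libraries, the cause was not tested.

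Directions turned only where no call stood. For P-SSCs against BM-MSCs, leaving out 1 library moved *Actg2* from -0.072 (without P-SSC replicate 2) to 1.22, *Tubgcp2* from -0.030 (without P-SSC replicate 2) to 0.33 and *Arpc1a* from -0.21 (without BM-MSC replicate 3) to 0.23. For graft P-SSCs against P-SSCs it moved *Myl2* from -0.30 to 0.50 (above 0 without P-SSC replicate 2 or graft replicate 3) and *Arpc3* from -0.057 (without P-SSC replicate 3) to 0.23. In the same comparison *Myl2* was 0.90 with a pseudocount of 0.1, and with median-of-ratios scaling and quantile normalization *Tubgcp2* was -0.029 and -0.073 and *Arpc3* -0.23 and -0.14. For graft P-SSCs against BM-MSCs, leaving out 1 library moved *Actr6* from -0.50 to 0.043 (without BM-MSC replicate 3) and *Arpc1a* from -0.28 to 0.16 (above 0 without BM-MSC replicate 1 or 2).

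Same-numbered libraries did not deviate together (mean r of -0.26 for the graft with P-SSCs, 0.023 for P-SSCs with BM-MSCs and -0.006 for the graft with BM-MSCs). Deviations from a mean of 3 libraries cannot show whether libraries were paired, and the labels do not say. With a replicate block the counts were 1 higher and 1 lower for P-SSCs against BM-MSCs, 5 and 2 for graft P-SSCs against P-SSCs, and 6 and 0 for graft P-SSCs against BM-MSCs. Of all 1948 genes tested, the same fit called 182 and 259, 416 and 205, and 458 and 297. With 3 libraries a group and 14 of 46 genes tested, low genes such as *Kif21a* and *Myo1f* were tested only with no filter on low values, and counting error was not modelled apart from the spread between libraries.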

Other observations

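Steady-state P-SSC replicate 2 held the highest P-SSC values of *Tpm2* (225 FPKM), *Actg2* (4.996 FPKM), *Myl1* (6.47 FPKM), *Myl2* (2.03 FPKM) and *Tubgcp2* (37.2 FPKM) and the lowest of *Dync1li2* (10.1 FPKM) and *Kif13a* (0.517 FPKM), and the skeletal muscle marker *Atp2a1* was also highest there (5.69 FPKM). P-SSC replicate 3 held the highest P-SSC values of several actin regulators, with 22.5 FPKM of *Rdx*, 32.5 FPKM of *Rhob* and 13.6 FPKM of *Wasl*, against 1.89 to 5.58, 3.19 to 4.84 and 1.11 to 2.51 FPKM in the other P-SSC libraries. These genes were picked out after their values were seen.

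*Flnc*, the filamin of muscle, which cross-links actin, was picked out after its values were seen. It was at 0.0186, 1.02 and 0.696 FPKM in BM-MSCs, 20.7, 17.0 and 28.7 FPKM in P-SSCs and 34.7, 29.4 and 39.9 FPKM in graft P-SSCs. P-SSCs against BM-MSCs gave 3.90 (adjusted p = 2.23e-05 from limma). The graft libraries were above the P-SSC libraries by a small margin only, and the difference was not called (0.65, adjusted p = 0.160 from limma). It was 0.33 and 0.21 with the median-of-ratios and the quantile scaling, also not called.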
